A study of Mus musculus with 46 samples.

Results

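Glutathione transferases, glutathione peroxidases and the enzymes that make and recycle glutathione were followed in mouse liver under dietary restriction and rapamycin. The members were taken by name, as all probes whose platform gene symbol belongs to the transferase families Gsta, Gstk, Gstm, Gsto, Gstp, Gstt, Gstz or Mgst, to the peroxidase family Gpx, or is Gclc, Gclm, Gss, Gsr, Ggt1 or Glrx. This gave 36 of the 16593 genes named on the array, with 52 of its 25697 probes. The platform annotation used here names no probe for Gsr or Ggt1.

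Liver RNA of 46 male C57BL6/J mice was measured on Illumina Mouse Ref8 arrays, 1 array per mouse, at 8 months of age. Treatment began at 2 months of age and lasted 6 months. The groups were 11 mice on 40% dietary restriction (DR), 12 mice given 14 ppm rapamycin in the diet (Rapa), 12 mice given 14 ppm rapamycin with 40% dietary restriction (Rapa + DR) and 11 mice fed ad libitum and given no rapamycin (AL). The restricted mice were given their ration once a day, while AL and Rapa mice ate freely. Values are given as log2 signal on a scale common to all arrays, and on this scale the limit of background lay between 6.41 and 6.71. A probe was called changed in a comparison at a limma adjusted p under 0.05 with group medians more than 15% apart, and "rose" and "fell" are used only of called probes.

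Glutathione is a tripeptide of glutamate, cysteine and glycine, and the liver is its main producer. Glutamate-cysteine ligase (Gclc, with its modifier subunit Gclm) joins glutamate to cysteine, and glutathione synthetase (Gss) adds glycine. Glutathione transferases couple glutathione to reactive compounds such as drug metabolites and products of lipid peroxidation, peroxidases use it to reduce hydrogen peroxide and lipid hydroperoxides, and glutaredoxin (Glrx) uses it to reduce disulfides in proteins. Many of these genes are known targets of the transcription factor NRF2, which binds the antioxidant response element, and several transferases also respond to the nuclear receptors CAR (Nr1i3) and PXR (Nr1i2).

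RefSeq promoter windows of the build GRCm38.p6, each with 250 bases before a gene's start and 50 after it, were matched for 33 of the 36 genes; Gclc, Gsta4 and Gstt2 were not matched. The core of the antioxidant response element, TGACNNNGC on either strand, was found in windows of 4 of the 33 genes, Gclm, Mgst1, Gsta3 and Gstm5, and in 12.4% of all 32851 windows. The stretches that hold it are shown because the expression of these genes is described further on. Capitals mark the match, and the sequences run 5′ to 3′ on the gene's strand.
Gclm, chr3:122245393-122245461, plus strand: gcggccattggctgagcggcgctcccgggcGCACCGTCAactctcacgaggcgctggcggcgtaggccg
Mgst1, chr6:138140441-138140509, plus strand: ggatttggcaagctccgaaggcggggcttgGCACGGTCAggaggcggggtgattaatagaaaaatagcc
Gsta3, chr1:21240434-21240502, plus strand: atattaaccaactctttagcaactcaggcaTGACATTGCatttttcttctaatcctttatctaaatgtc
Gstm5, chr3:107895782-107895850, plus strand: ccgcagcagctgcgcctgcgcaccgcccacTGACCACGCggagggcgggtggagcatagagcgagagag

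The matches began 134 bases before the start of Gclm, 56 before Mgst1, 121 before Gsta3 and 42 before Gstm5. In Gclm and Mgst1 the match is on the opposite strand, so that it reads as the reverse complement of the core. The E-box CACGTG was found in a window of 1 gene, Gpx6, and in 7.15% of all windows.

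The promoters of Gsta1 and Gsta2 are shown as a pair because these alpha-class genes, which lie near each other on chromosome 9, rose in the same groups. A local alignment of their 250 bases before the start gave 226 columns, of which 171 (75.7%) were identical and 8 held a gap. Capitals mark bases that differ between the genes or face a gap.
Gsta1, chr9:78230449-78230668, plus strand: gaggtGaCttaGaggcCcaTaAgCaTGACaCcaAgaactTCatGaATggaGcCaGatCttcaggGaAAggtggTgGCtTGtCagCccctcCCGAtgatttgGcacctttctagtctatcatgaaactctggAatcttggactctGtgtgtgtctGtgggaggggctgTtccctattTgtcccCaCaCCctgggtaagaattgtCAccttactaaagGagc
Gsta2, chr9:78347151-78347374, minus strand: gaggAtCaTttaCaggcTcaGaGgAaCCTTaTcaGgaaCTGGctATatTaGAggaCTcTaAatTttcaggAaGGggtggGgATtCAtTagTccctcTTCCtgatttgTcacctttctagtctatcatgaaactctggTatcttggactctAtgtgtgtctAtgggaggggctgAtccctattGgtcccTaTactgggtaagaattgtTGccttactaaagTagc
In both genes the capitals are sparse in the last part of the stretch, next to the start, and dense in the first part.

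Of the 52 probes, 49 probes of 34 genes lay above background on at least 1 array and were tested. The other 3, the probes of Gpx5 (an epididymal peroxidase) and Gstt4, were above background on no array. In DR mice 8 probes rose and 3 fell against AL, 22.4% of those tested, beside 15.1% of all 16458 probes tested (9.53% higher and 5.6% lower). In Rapa mice 4 rose and 9 fell, 26.5% beside 12.4% of all probes (7.43% higher and 4.97% lower). In Rapa + DR mice 12 rose and 6 fell, 36.7% beside 24.4% of all probes (15.6% higher and 8.74% lower). The median change of the 49 probes was -0.01 in DR and -0.11 in Rapa, with 0.01 in Rapa + DR on the log2 scale, and that of all probes lay between -0.01 and 0.00. The balance of higher and lower calls depended on the scaling of the arrays. With arrays centred but their spread left as measured, 12 rose and 1 fell in DR, 3 rose and 6 fell in Rapa, and 20 rose and 1 fell in Rapa + DR. With quantile normalization 3 rose and 12 fell in Rapa.

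**Figure D1:**
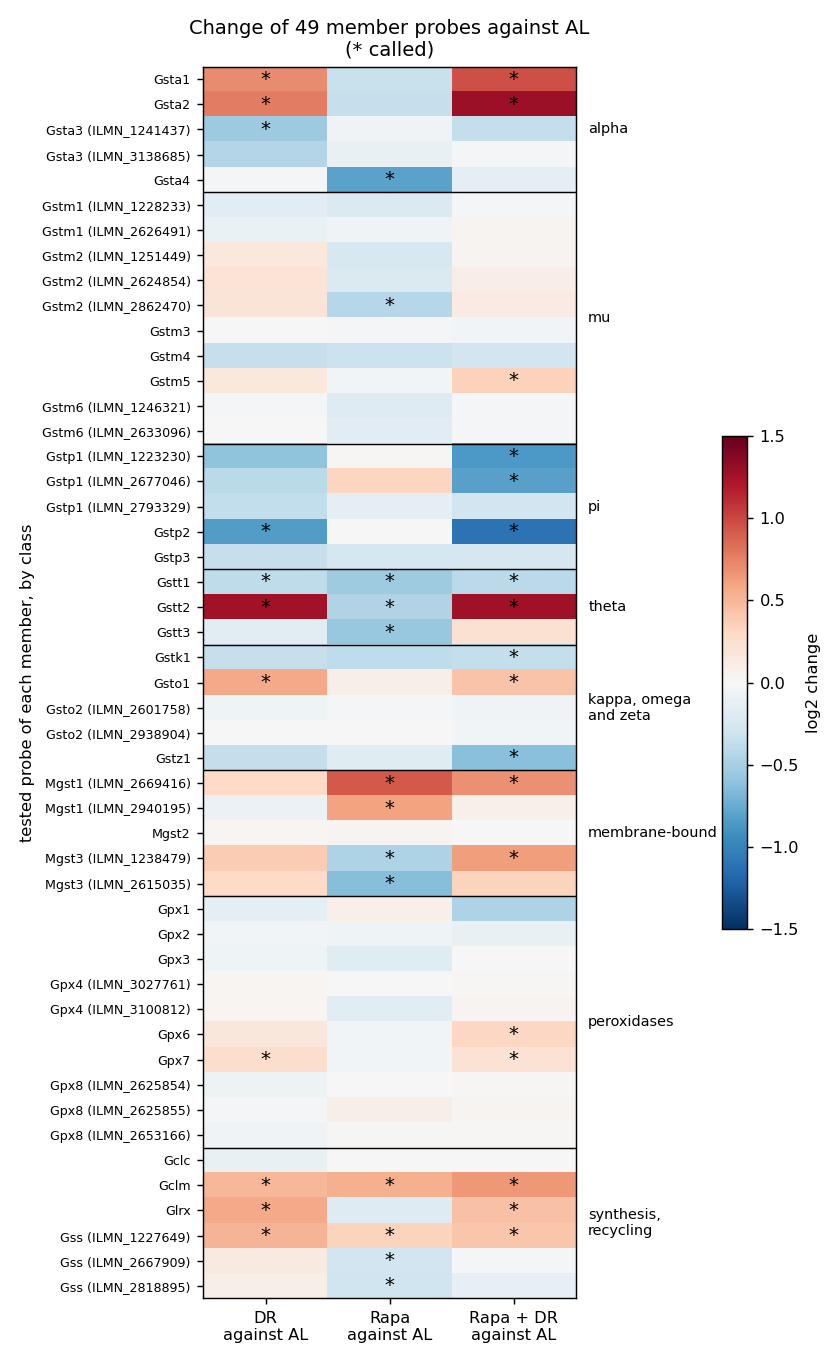
Log2 change of the 49 tested member probes (rows, grouped by class, with the probe ID where a gene has several) in DR, Rapa and Rapa + DR mice against AL mice (columns); colour gives the change and an asterisk marks a called probe. The DR and Rapa + DR columns share the strong increases of Gstt2, Gsta1 and Gsta2, while the Rapa column is mostly blue among the transferases.

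In the theta class 1 of 3 tested probes rose and 1 fell in DR and in Rapa + DR, and all 3 fell in Rapa. Gstt2, a theta transferase that acts on organic hydroperoxides and sulfate esters, was at 9.91, 10.37 and 10.67 (lowest, median and highest mouse) in DR, at 7.97, 8.52 and 8.97 in Rapa, at 9.86, 10.27 and 10.63 in Rapa + DR and at 8.34, 8.92 and 9.53 in AL. Every DR and every Rapa + DR mouse lay above every Rapa and every AL mouse. Groups that do not overlap were found for 0.984% of all tested probes in DR against AL and for 2.32% in Rapa + DR against AL. The share was 0.893% in DR against Rapa and 1.11% in Rapa + DR against Rapa. No member had groups that do not overlap in Rapa against AL, beside 0.0243% of all probes, or in Rapa + DR against DR, beside 0.0547%. Gstt2 rose by 1.27 ± 0.11 in DR (log2 change ± SE, 2.40-fold, limma adjusted p = 2.7e-11) and by 1.27 ± 0.11 in Rapa + DR (2.42-fold, adjusted p = 5.0e-12), and fell by 0.45 ± 0.11 in Rapa (0.73-fold, adjusted p = 0.0037). These 3 calls held under every alternative setting tried.

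Gstt1, a theta transferase known for the conjugation of small halogenated compounds, had medians of 11.26 in DR, 11.19 in Rapa, 11.31 in Rapa + DR and 11.60 in AL. It fell in all 3 groups, by 0.38 ± 0.13 in DR and 0.54 ± 0.13 in Rapa, with 0.41 ± 0.13 in Rapa + DR (limma adjusted p = 0.034, 0.0024 and 0.010), and the groups overlapped. The call in DR was lost when any 1 of 6 arrays was left out, and the decreases in DR and Rapa + DR were not called with arrays centred but their spread left as measured, where they were -0.07 and -0.00. The decrease in Rapa was -0.54 there too.

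Gstt3, a further theta member, was at 10.41, 10.78 and 11.34 in DR, at 9.68, 10.32 and 11.10 in Rapa, at 10.53, 11.26 and 11.68 in Rapa + DR and at 10.37, 10.95 and 11.60 in AL. Rapa mice were thus the lowest group and Rapa + DR mice the highest, with overlap between all groups. Gstt3 fell by 0.57 ± 0.15 in Rapa against AL (limma adjusted p = 0.0055), and its changes in DR (-0.17 ± 0.15) and Rapa + DR (0.23 ± 0.15) were not called. The call in Rapa was lost under 2 of the 10 alternative settings (highest limma adjusted p = 0.071). With limma array weights the change in Rapa was -0.40 and not called (adjusted p = 0.061), and with arrays centred but their spread left as measured the change in Rapa + DR was 0.62 and called.

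**Figure D2:**
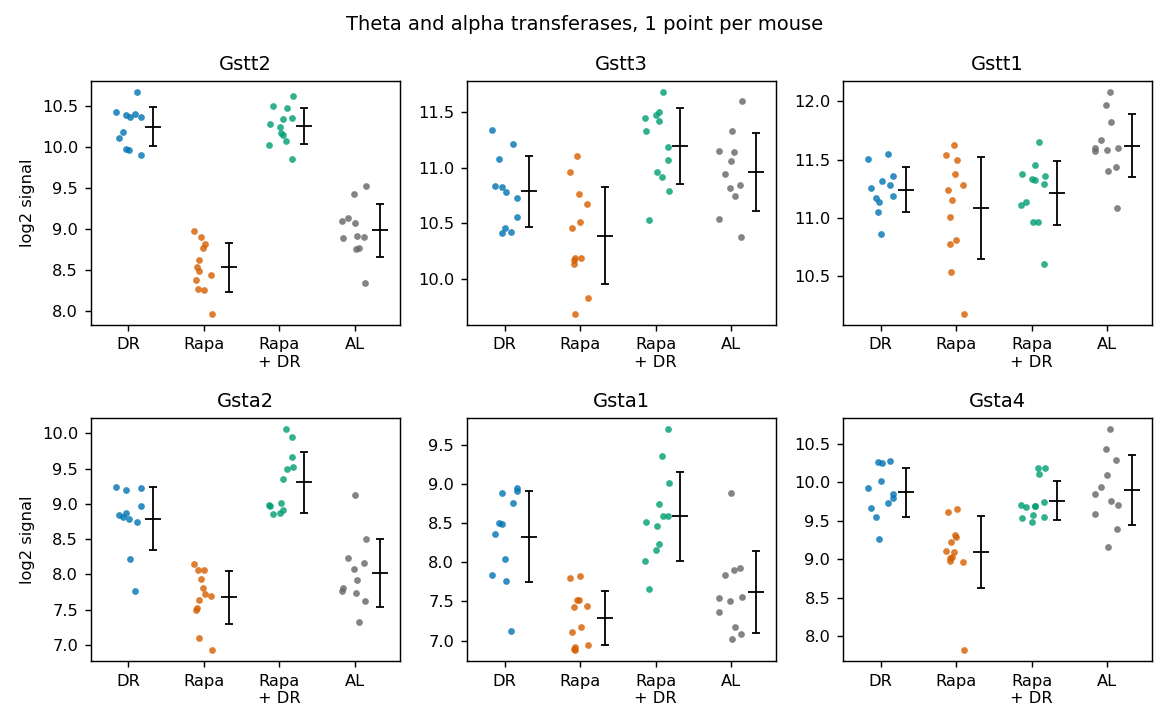
Log2 signal of 3 theta and 3 alpha transferases in each mouse (points), with the mean and SD of each group beside them, in DR, Rapa, Rapa + DR and AL from left to right; each panel has its own vertical range. Gstt2 is at 9.86 or higher in all DR and Rapa + DR mice and at 9.53 or lower in all Rapa and AL mice.

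Among alpha transferases, which conjugate lipid aldehydes and reduce lipid hydroperoxides, Gsta1 and Gsta2 rose under restriction with and without rapamycin. Gsta2 was at 7.76, 8.84 and 9.23 in DR, at 6.92, 7.71 and 8.14 in Rapa, at 8.85, 9.18 and 10.06 in Rapa + DR and at 7.33, 7.92 and 9.12 in AL. All Rapa + DR mice lay above all Rapa mice, which was the case for 1.11% of all probes tested in that comparison. Gsta2 rose by 0.76 ± 0.18 in DR (1.70-fold, limma adjusted p = 0.0017) and by 1.28 ± 0.18 in Rapa + DR (2.43-fold, adjusted p = 1.9e-07), while its change in Rapa was -0.35 ± 0.18 (adjusted p = 0.20). Gsta1 had medians of 8.49 in DR, 7.29 in Rapa, 8.56 in Rapa + DR and 7.55 in AL. It rose by 0.71 ± 0.21 in DR and by 0.97 ± 0.21 in Rapa + DR (adjusted p = 0.014 and 0.00024), with a change of -0.33 ± 0.21 in Rapa. The same AL mouse, AL mouse 11, was at 8.88 for Gsta1 and at 9.12 for Gsta2, and so lay among the DR mice for both genes. Whether the probe of either gene also bound the product of the other was not tested.

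Gsta4, which is specialised in conjugating 4-hydroxynonenal, an aldehyde from lipid peroxidation, moved in another way. It was at 9.26, 9.85 and 10.27 in DR, at 7.82, 9.10 and 9.65 in Rapa, at 9.49, 9.69 and 10.18 in Rapa + DR and at 9.15, 9.84 and 10.69 in AL. All 12 Rapa mice lay below the AL median, and Gsta4 fell by 0.81 ± 0.16 in Rapa (0.57-fold, limma adjusted p = 0.00028), with changes of -0.03 ± 0.16 in DR and -0.14 ± 0.16 in Rapa + DR. The call in Rapa held under every alternative setting and whichever array was left out. Gsta3, the alpha transferase known to detoxify aflatoxin in mice, has 2 tested probes. Its brighter probe fell by 0.54 ± 0.20 in DR (adjusted p = 0.049), a call lost under 6 of the 10 alternative settings, and its other probe was at -0.44 ± 0.22 and not called.

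Of 5 tested pi probes 1 (20%) fell in DR, none was called in Rapa and 3 (60%) fell in Rapa + DR. Over all tested probes 15.1%, 12.4% and 24.4% were called, and 5.6%, 4.97% and 8.74% were called lower. Gstp2 was at 7.11, 7.39 and 8.57 in DR, at 7.02, 8.32 and 9.22 in Rapa, at 6.89, 7.15 and 7.60 in Rapa + DR and at 6.76, 8.55 and 9.47 in AL. It fell by 0.83 ± 0.25 in DR (0.56-fold, limma adjusted p = 0.015) and by 1.10 ± 0.25 in Rapa + DR (0.47-fold, adjusted p = 0.00040), with no call in Rapa (-0.00 ± 0.25). The spread differed among groups, with an SD of 0.41 in DR, 0.65 in Rapa, 0.26 in Rapa + DR and 0.91 in AL. Gstp1, the pi transferase that is more abundant in the liver of male than of female mice, has 3 probes. In DR none of them was called, with changes of -0.41 ± 0.27 for the brightest, -0.60 ± 0.23 for another and -0.37 ± 0.19 for the dimmest (adjusted p = 0.33, 0.061 and 0.17). In Rapa + DR its brightest probe fell by 0.81 ± 0.26 and another by 0.86 ± 0.23 (adjusted p = 0.013 and 0.0024), and the dimmest was at -0.28 ± 0.18 and not called. With arrays centred but their spread left as measured the first 2 were at -0.18 and -0.28 and not called, while Gstp2 kept its calls at -0.77 in DR and -1.03 in Rapa + DR. Gstp3 was not called in any comparison on the deposited scale and was at -0.38 and called in DR with quantile normalization. Gstp1, Gstp2 and Gstp3 are near-identical copies in part, so a probe may also have bound the product of a neighbour, which was not tested.

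Of 10 tested mu probes 1 (10%) was called in Rapa, 1 (10%) in Rapa + DR and none in DR, beside 12.4%, 24.4% and 15.1% of all probes. In DR 2 of the 10 had an unadjusted p under 0.05 in limma, and quantile normalization called Gstm4, at -0.41. Gstm5, a mu transferase best known from brain and testis, rose by 0.35 ± 0.09 in Rapa + DR (limma adjusted p = 0.0016), with medians of 7.77 in DR, 7.58 in Rapa, 8.02 in Rapa + DR and 7.65 in AL. Gstm2 has 3 probes, which gave changes of -0.21 ± 0.13, -0.24 ± 0.13 and -0.43 ± 0.14 in Rapa, and the last of these was called (adjusted p = 0.031). That call was lost with limma array weights (-0.31), with arrays centred (-0.44, adjusted p = 0.17) and when any 1 of 6 arrays was left out. Gstm1, a mu transferase well known in mouse liver, was at -0.17 ± 0.13 in DR and -0.22 ± 0.13 in Rapa, with -0.01 ± 0.13 in Rapa + DR by its brighter probe, with no call. With arrays centred it rose by 0.54 in Rapa + DR. Gstm3, Gstm4 and Gstm6 were not called in any comparison on the deposited scale.

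Among the kappa, omega and zeta classes, Gsto1, an omega transferase with glutaredoxin-like and dehydroascorbate reductase activity, rose under restriction. It was at 10.61, 11.19 and 11.36 in DR, at 10.21, 10.69 and 10.89 in Rapa, at 10.76, 10.96 and 11.22 in Rapa + DR and at 10.22, 10.55 and 10.80 in AL. All 11 DR and all 12 Rapa + DR mice lay above the AL median. The increase was 0.57 ± 0.08 in DR (1.48-fold, limma adjusted p = 1.3e-06) and 0.43 ± 0.08 in Rapa + DR (1.35-fold, adjusted p = 3.3e-05), and the change in Rapa was 0.09 ± 0.08. Gstz1, the zeta member, is the maleylacetoacetate isomerase of tyrosine breakdown. It fell by 0.63 ± 0.17 in Rapa + DR (adjusted p = 0.0035), a change of -0.02 with arrays centred. Gstk1, the mitochondrial and peroxisomal kappa transferase, fell by 0.36 ± 0.13 in Rapa + DR (adjusted p = 0.030), and with arrays centred this change was 0.13. Its changes in DR (-0.35 ± 0.14, limma adjusted p = 0.068) and Rapa (-0.39 ± 0.13, adjusted p = 0.041) were of similar size but not called. The Rapa median, 12.26, was too close to the AL median, 12.31, for a call. Both Gsto2 probes lay near background and were not called.

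The membrane-bound transferases Mgst1 and Mgst3 moved in opposite directions in Rapa against AL, where both Mgst1 probes rose and both Mgst3 probes fell. Mgst1, found in the endoplasmic reticulum and the outer mitochondrial membrane, was at 13.21, 13.69 and 14.36 in DR, at 13.52, 14.60 and 15.10 in Rapa, at 13.06, 14.00 and 15.15 in Rapa + DR and at 13.00, 13.91 and 14.52 in AL by its brighter probe. This probe rose by 0.60 ± 0.21 in Rapa (limma adjusted p = 0.047), a call lost when any 1 of 24 arrays was left out, and its other probe rose by 0.92 ± 0.19 (1.90-fold, adjusted p = 0.00058). In Rapa + DR the changes of the 2 probes were 0.07 ± 0.21, not called, and 0.68 ± 0.19 (adjusted p = 0.0040). With arrays centred, both probes rose in all 3 groups, by 0.40 and 0.69 in DR, 0.53 and 0.84 in Rapa and 0.71 and 1.23 in Rapa + DR.

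Mgst3, a membrane-bound enzyme with transferase and peroxidase activity, was at 9.05, 9.69 and 10.24 in DR, at 7.68, 8.59 and 9.52 in Rapa, at 8.73, 9.71 and 10.19 in Rapa + DR and at 8.63, 9.46 and 9.90 in AL by its brighter probe. Its 2 probes fell in Rapa by 0.64 ± 0.19 and 0.46 ± 0.16 (limma adjusted p = 0.016 and 0.040), and the second call was lost when any 1 of 10 arrays was left out. In Rapa + DR the brighter probe was at 0.34 ± 0.19, not called, and the other rose by 0.63 ± 0.16 (adjusted p = 0.0015). Mgst2 was near background and not called.

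Of 10 tested peroxidase probes 1 (10%) was called in DR, none in Rapa and 2 (20%) in Rapa + DR, beside 15.1%, 12.4% and 24.4% of all probes, and the calls were all higher. Gpx1, the main cytosolic peroxidase of liver, was at 14.23, 15.27 and 16.39 in DR, at 14.06, 15.70 and 16.99 in Rapa, at 13.95, 15.10 and 16.25 in Rapa + DR and at 14.18, 15.43 and 16.18 in AL. The groups overlapped almost completely, and the changes were -0.14 ± 0.28, 0.08 ± 0.27 and -0.46 ± 0.27 with no call. With arrays centred Gpx1 rose by 0.44 in DR and by 0.30 in Rapa + DR, so its result depends on the scaling. Gpx4, which reduces phospholipid hydroperoxides in membranes, and Gpx3, the secreted plasma form, were not called in any comparison, and their changes against AL lay between -0.19 and 0.05. Gpx7, a peroxidase of the endoplasmic reticulum, rose by 0.27 ± 0.06 in DR and by 0.22 ± 0.06 in Rapa + DR (limma adjusted p = 0.0012 and 0.0037). Its medians were 6.89 in DR, 6.57 in Rapa, 6.86 in Rapa + DR and 6.60 in AL, close to the limit of background. With the background level subtracted the increases were 1.23 in DR and 1.03 in Rapa + DR. Gpx6, known from olfactory tissue, was above background on 1 array of DR, 0 of Rapa, 8 of Rapa + DR and 0 of AL. It passed the filter almost only through the group where it was highest. It stands among the probes counted as called in Rapa + DR against AL, in Rapa + DR against Rapa and in DR against Rapa. No test or fold is given, because its mean in Rapa + DR, 6.58, was no higher than the mean background limit of the AL arrays, 6.58. Its mean in DR, 6.44, lay below the mean limit of the Rapa arrays, 6.59.

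Among the enzymes of synthesis, Gclm, the subunit that raises the affinity of the ligase for glutamate, rose in all 3 groups. It was at 9.68, 10.25 and 10.53 in DR, at 9.91, 10.28 and 10.47 in Rapa, at 9.84, 10.37 and 10.67 in Rapa + DR and at 9.16, 9.71 and 10.22 in AL. All Rapa and all Rapa + DR mice lay above the AL median, as did 10 of 11 DR mice. The increases were 0.49 ± 0.10 in DR (1.41-fold, limma adjusted p = 0.00020), 0.53 ± 0.10 in Rapa (1.44-fold, adjusted p = 0.00013) and 0.64 ± 0.10 in Rapa + DR (1.56-fold, adjusted p = 7.2e-07). With arrays centred the change in Rapa was 0.50 and not called (adjusted p = 0.070). Gclc, the catalytic subunit, was not called in any comparison, with changes against AL of -0.11 ± 0.08, -0.00 ± 0.08 and 0.01 ± 0.08.

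The 3 probes of Gss disagreed. Its brightest probe was at 0.09 ± 0.07 in DR and -0.30 ± 0.07 in Rapa, with -0.12 ± 0.07 in Rapa + DR, with a call in Rapa alone (limma adjusted p = 0.0024), and a further probe behaved alike with -0.29 ± 0.07 in Rapa (adjusted p = 0.0032), a call lost under 2 alternative settings and when any 1 of 12 arrays was left out. The remaining probe rose in all 3 groups, by 0.51 ± 0.12, 0.34 ± 0.12 and 0.42 ± 0.12 (adjusted p = 0.0016, 0.041 and 0.0045), with the call in Rapa lost when any 1 of 14 arrays was left out. No direction is therefore given for Gss in Rapa mice. Glrx was at 10.49, 10.88 and 11.27 in DR, at 9.45, 10.16 and 10.85 in Rapa, at 10.37, 10.80 and 11.34 in Rapa + DR and at 9.99, 10.27 and 10.84 in AL. It rose by 0.57 ± 0.14 in DR and by 0.43 ± 0.13 in Rapa + DR (adjusted p = 0.0019 and 0.0085), and was at -0.19 ± 0.13 in Rapa.

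**Figure D3:**
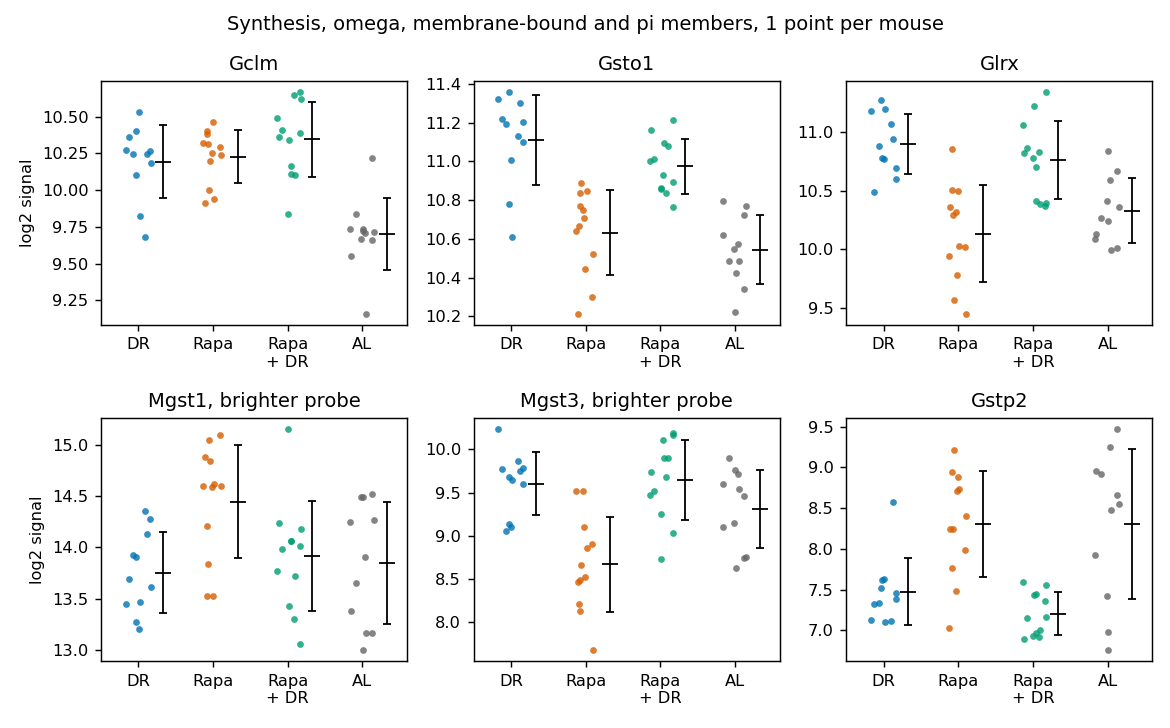
Log2 signal of 6 further members in each mouse (points), with the mean and SD of each group beside them, in DR, Rapa, Rapa + DR and AL from left to right; each panel has its own vertical range. Gclm is higher in all 3 treated groups than in AL, Gsto1 and Glrx in the restricted groups, Mgst1 is highest and Mgst3 lowest in Rapa, and Gstp2 is low in the restricted groups and spread out in AL and Rapa.

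The effect of rapamycin was then compared between restricted and freely fed mice. In Rapa + DR against DR, limma called none of the 49 probes, beside 1.85% of all probes tested (1.58% higher and 0.267% lower), and 9 had an unadjusted p under 0.05 against 17.3% of all probes. The methods' ANOVA without moderation also called none. With quantile normalization 3 were called (Gsta3 and Mgst1 higher, Gstz1 lower), and with the background level subtracted 2 (Gpx6 and Gstm1 higher, by probes near background). Of all probes these settings called 383 and 373, instead of 304. Gsta2 had the largest change, 0.52 ± 0.18 (adjusted p = 0.098), and all 12 Rapa + DR mice lay above the DR median.

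The interaction, which is the change in Rapa + DR against DR minus the change in Rapa against AL, was called for 1 of the 49 probes, beside 2.17% of all probes tested (1.14% higher and 1.03% lower), and 13 had an unadjusted p under 0.05 against 17.5% of all probes. The called probe was that of Gstt3. Its level differed by 0.41 ± 0.15 in Rapa + DR against DR and by -0.57 ± 0.15 in Rapa against AL, which gives an interaction of 0.98 ± 0.21 (limma adjusted p = 0.012). The call held under the 9 alternative settings that apply to the interaction and whichever array was left out, with values between 0.76 and 1.07. Gsta2 (0.86 ± 0.25, adjusted p = 0.053), Gsta4 (0.70 ± 0.22, adjusted p = 0.076) and a probe of Mgst3 (0.71 ± 0.22, adjusted p = 0.074) had interactions that were not called, as had the brightest Gstp1 probe in the opposite direction (-0.73 ± 0.37, adjusted p = 0.30). Gsta2 was called under 5 alternative settings, among them quantile normalization and limma array weights, and without some single arrays. With limma array weights 5 probes had a called interaction above 0 and 3 below it, beside 1513 of all probes called instead of 357. The 3 below 0 were those of a Gss probe (-0.54), Gclm (-0.42) and an Mgst1 probe (-0.73).

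**Figure D4:**
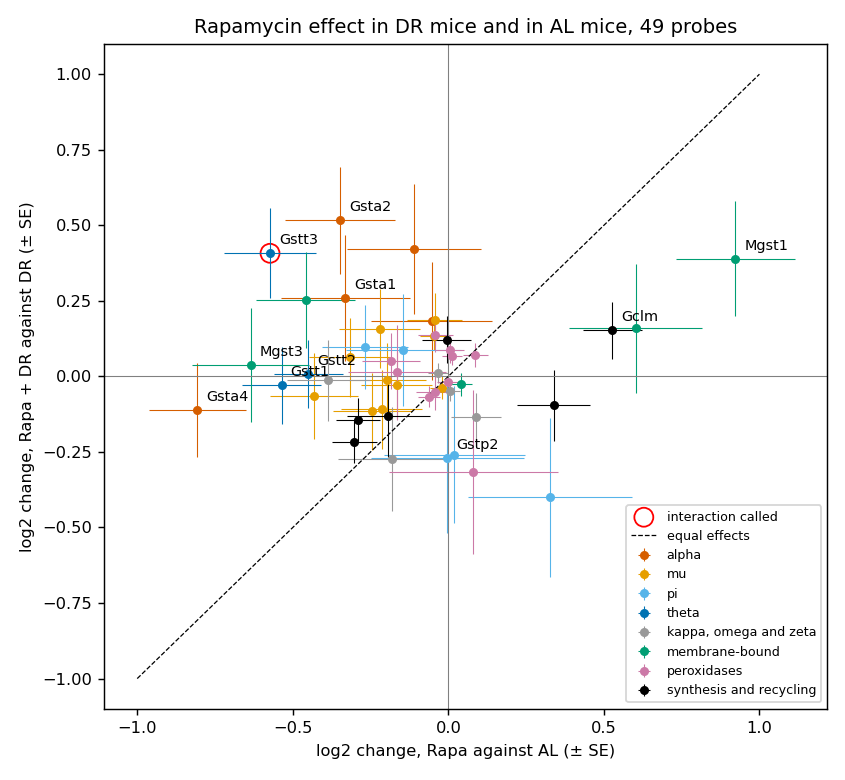
Log2 change of the 49 tested probes in Rapa + DR against DR (vertical axis) and in Rapa against AL (horizontal axis), with SE in both directions and the class in colour; the dashed line marks equal effects and the circle the called interaction. Gstt3 lies at -0.57 on the horizontal and 0.41 on the vertical axis, and Gclm and Mgst1 lie to the right, and their interactions were not called.

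With rapamycin in both groups, restriction gave 14 probes higher and 4 lower in Rapa + DR against Rapa, 36.7% beside 15.5% of all probes (10.2% higher and 5.26% lower). The higher probes include that of Gpx6, which was above background on no Rapa array. The largest increases were those of Gstt2 (1.72 ± 0.11, limma adjusted p = 6.2e-16), Gsta2 (1.63 ± 0.17, adjusted p = 7.9e-10) and Gsta1 (1.30 ± 0.20, adjusted p = 3.7e-06), followed by the 2 probes of Mgst3 (1.09 ± 0.15 and 0.97 ± 0.18), Gstt3 (0.81 ± 0.15) and Gsta4 (0.67 ± 0.15). The decreases were those of 2 Gstp1 probes (-1.14 ± 0.26 and -0.88 ± 0.22), Gstp2 (-1.10 ± 0.24) and Gstz1 (-0.45 ± 0.17). With arrays centred 28 rose and 1 fell, and the change of Gstz1 was 0.20. Of all called probes 75.7% were higher there, against 66.0% on the deposited scale. DR against Rapa, which sets the treatments side by side, gave 15 higher and 3 lower, 36.7% beside 9.7% of all probes (5.89% higher and 3.81% lower). With arrays centred 18 were higher and 1 lower, where 80.1% of all called probes were higher, against 60.7% on the deposited scale. On the deposited scale Gpx6 is again among the higher, although it was above background on 1 DR array and on no Rapa array. The 3 lower were Gstp2 (-0.83 ± 0.25) and both Mgst1 probes (-0.69 ± 0.21 and -0.63 ± 0.19). With arrays centred the Mgst1 probes were at -0.13 and -0.15 and not called. All 3 Gstm2 probes were higher in DR than in Rapa (0.40 to 0.62), as were Glrx (0.76 ± 0.13) and 2 of the 3 Gss probes (0.42 ± 0.07 and 0.39 ± 0.07). The calls of the Gstm2 probes at 0.40 and 0.42 were each lost under 3 alternative settings. The comparisons share groups, so their values are not independent.

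The dependence on scaling followed the brightness of the probes. The spread of the log2 signals on an array (their SD), by which the authors divided, averaged 1.38 in DR, 1.28 in Rapa, 1.41 in Rapa + DR and 1.28 in AL. An array with a larger SD has its bright probes drawn down by the division, so that bright probes of DR and Rapa + DR mice gain when the division is left out. The share of probes above background had medians of 40.6% in DR, 39.2% in Rapa, 44.0% in Rapa + DR and 38.6% in AL. In Rapa against AL, where the mean SDs were alike, Gstt2 was at -0.44, Gstt1 at -0.54 and Gsta4 at -0.79 with arrays centred. The increases of Gstt2, Gsta1, Gsta2, Gsto1, Glrx and Gclm in DR and Rapa + DR and the decrease of Gstp2 were called under both scalings.

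**Figure D5:**
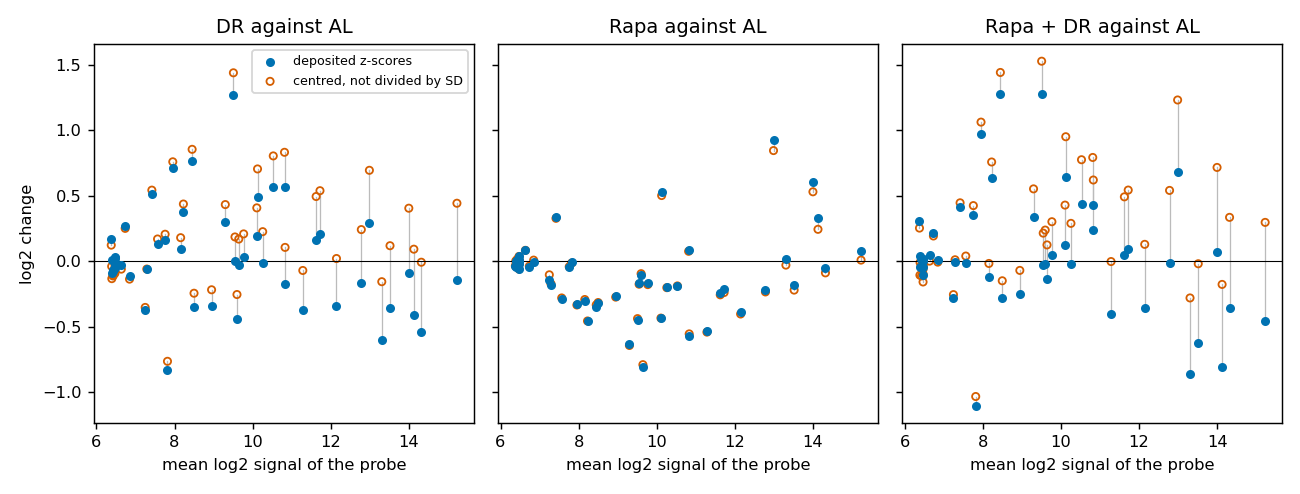
Log2 change against AL of the 49 tested probes (vertical axis) by their mean log2 signal (horizontal axis), with the deposited z-scores (filled) and with arrays centred but their spread left as measured (open), joined by a line for each probe. In DR and Rapa + DR the open points lie above the filled ones for bright probes and close to them for dim ones, while in Rapa both nearly coincide.

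Members also varied together between mice of the same group. Each mouse's deviation from its group mean was correlated between probes over the 46 mice, for 8 pairs of genes and 11 pairs of probes of a gene, with permutation tests of 100000 resamples within groups and p adjusted over the 19 pairs. Gsta1 and Gsta2 had r = 0.83 and rho = 0.78 (adjusted permutation p = 2.1e-05 and 2.4e-05), r = 0.76 without the 2 mice farthest from the median of Gsta1, and between 0.75 and 0.89 within the groups. Their probes may have bound each other's product, which was not tested. Gstt1 and Gstt2 had r = 0.69 and rho = 0.64 (adjusted permutation p = 2.1e-05 and 8.4e-05, 0.61 without 2 mice), although their group means moved apart in DR and Rapa + DR. Gclc and Gclm had r = 0.42 and rho = 0.40 (adjusted permutation p = 0.0041 and 0.0083, 0.34 without 2 mice), and Mgst1 and Mgst3 had r = -0.09 and rho = -0.09 (adjusted permutation p = 0.62 and 0.61). The probes of Gstm2, Gstm6, Mgst1 and Mgst3 agreed, with r between 0.87 and 0.95. The probe of Gss that rose in all groups had r = -0.04 and 0.34 with the other 2. The 2 Gsta3 probes had r = -0.25 on the deposited scale and 0.89 with arrays centred, and Gstm2 with Gstm6 had 0.54 and 0.82. All pairs share arrays and their scaling.

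Genes around the family were read from lists named in the same way. Of 17 tested genes for the breakdown, transport and precursor supply of glutathione, 3 rose and 2 fell in DR, 2 rose and 2 fell in Rapa and 3 rose and 3 fell in Rapa + DR, with list medians of -0.02, -0.03 and -0.02. Among all tested probes 15.1%, 12.4% and 24.4% were called in these comparisons. Cth, the last enzyme of cysteine synthesis from methionine, rose by 0.89 ± 0.19 in DR and 1.08 ± 0.19 in Rapa, with 1.48 ± 0.19 in Rapa + DR (limma adjusted p = 0.00061, 8.4e-05 and 3.8e-08). Cbs, the enzyme before it, fell by 0.71 ± 0.14 in DR and 1.08 ± 0.14 in Rapa + DR. Chac1, which breaks glutathione down in the cytosol, rose by 1.01 ± 0.21 in DR and 1.24 ± 0.20 in Rapa + DR, and Glo1, which uses glutathione to remove methylglyoxal, fell by 0.71 ± 0.12 and 0.92 ± 0.12. With arrays centred the decrease of Cbs in DR (-0.44) and both of Glo1 (-0.28 and -0.36) were not called.

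Of 13 tested NRF2 targets outside the family, 2 rose and 3 fell in DR, none was called in Rapa and 4 rose and 4 fell in Rapa + DR, with medians of -0.01, 0.01 and 0.03. The share of all tested probes called in these comparisons was 15.1%, 12.4% and 24.4%. The carbonyl reductase Cbr1 rose by 0.84 ± 0.13 in DR and 1.01 ± 0.13 in Rapa + DR, and the carboxylesterase Ces1g by 0.33 ± 0.11 and 0.94 ± 0.11. The epoxide hydrolase Ephx1 (-0.41 ± 0.13 and -0.69 ± 0.13) and the pentose phosphate enzyme Taldo1 (-0.57 ± 0.08 and -0.66 ± 0.08) fell in DR and Rapa + DR, and with arrays centred none of these 4 decreases was called (-0.02 to -0.29).

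Of 11 tested regulators, 3 rose and none fell in DR, 1 rose and 2 fell in Rapa and 3 rose and 1 fell in Rapa + DR, with medians of 0.18, -0.02 and 0.18. Over all tested probes the called share was 15.1%, 12.4% and 24.4%. Nr1i3 (CAR) rose by 0.66 ± 0.11 in DR and 0.46 ± 0.11 in Rapa + DR, and Nr1i2 (PXR) by 0.36 ± 0.09 and 0.63 ± 0.09, with changes of -0.23 ± 0.11 and -0.19 ± 0.09 in Rapa that were not called. Nfe2l2, the gene of NRF2 itself, which is named here after its values were seen, rose by 0.23 ± 0.06 in Rapa (limma adjusted p = 0.011) and was at 0.06 ± 0.07 in DR and 0.18 ± 0.06 in Rapa + DR, neither of them called. Rxra, the partner with which both receptors bind DNA, fell by 0.43 ± 0.07 in Rapa (adjusted p = 2.8e-05), and Mafg, a partner of NRF2, rose by 0.64 ± 0.17 in Rapa + DR. Of 10 tested antioxidant enzymes outside the family, Sephs2, which makes the selenium donor for selenoproteins such as Gpx1, rose in all 3 groups (0.89 ± 0.22, 1.23 ± 0.22 and 1.32 ± 0.22), and catalase (Cat) rose in Rapa (0.57 ± 0.13) and Rapa + DR (0.73 ± 0.13). Glrx3 was the 1 of 3 other glutaredoxins that rose, by 0.44 ± 0.09 in Rapa + DR.

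Arrays correlated with others of their group at 0.935 to 0.995. The mean signal of 7 hepatocyte markers lay between 11.7 and 13.3 on every array, far above background, and that of 6 lymphocyte markers between 6.30 and 6.55, at background. Among the hepatocyte markers 1 rose and 1 fell in DR, 1 fell in Rapa, and 1 rose and 2 fell in Rapa + DR. Of 7 tested Kupffer cell markers 2 fell in DR and 3 in Rapa, with 4 in Rapa + DR, none rose, and their mean level spanned 7.25 to 8.25 in DR, 7.56 to 8.26 in Rapa, 7.32 to 8.24 in Rapa + DR and 7.95 to 8.58 in AL. Of 6 endothelial markers none was called in DR, 2 fell in Rapa and 1 fell in Rapa + DR. Of 4 pancreas markers 2 had a probe, and 1 was tested, while the other probe was above background on no array. The 1 tested pancreas marker fell in DR and in Rapa + DR, as Gstp2 did, with medians of 8.53 in DR, 9.27 in Rapa, 8.63 in Rapa + DR and 9.47 in AL. No marker of stellate cells (5 tested), lymphocytes (6) or cholangiocytes (2) was called against AL. Of 6 pericentral markers 1 rose and 1 fell in DR, 2 fell in Rapa and 1 fell in Rapa + DR, and of 3 periportal markers 1 rose and 2 fell in DR and in Rapa + DR. Their part in the changes of the members was not tested, and in whole liver fewer cells of a type and less RNA per cell cannot be told apart.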

How the data were processed

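Illumina Mouse Ref8 version 2.0 arrays were hybridised with biotin-labelled cRNA of mouse liver and read in Genome Studio; the authors took log2 of the signals and normalized each array to z-scores. The deposited values are these scores. Here each score was multiplied by the mean array SD (1.34) and added to the mean array level (7.05), which gives a log2 signal common to all arrays. A further 92 deposited columns of unnormalized signals name no sample and were assigned to none.

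A probe was above background where it exceeded the upper 2% limit of the background level of that array, and 16458 of 25697 probes passed on at least 1 array. The number of arrays limits the precision. All 46 arrays entered 1 limma fit (lmFit and eBayes, limma 3.58.1, R 4.3.3) with Benjamini-Hochberg adjustment over all probes tested, and the interaction was called on adjusted p alone. A gene stands by its brightest probe, and other probes are given where they differ.

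Members called in any comparison against AL, between restricted and other groups or in the interaction are named, up to 30 by smallest adjusted p, with up to 4 called genes of each neighbouring list. Members and lists were chosen with earlier results of these data known. Alternatives were quantile normalization, centring without division by the SD, background subtraction, other filters, no threshold on medians, the methods' ANOVA, array weights and a replicate block; leaving out 5 arrays of weight under 0.5, and each array in turn, was chosen after seeing the data. The slide as a block was not run, since no source used here ties arrays to slides. Same-numbered arrays of different groups did not deviate together, so the numbers were not taken as pairs. Correlations used Python 3.11.15, NumPy 2.4.6 and SciPy 1.17.1, and the alignment Biopython 1.88.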

Additional observations from a re-analysis of the deposited data

Results flagged for a closer look

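The effect of rapamycin differed between restricted and freely fed mice for 1 member and 3 of the named neighbouring genes, by limma's interaction term. The 1 member is 2.04% of the 49 tested member probes, close to the 2.17% called over all tested probes. In the list for the breakdown, transport and precursor supply of glutathione, 1 further gene had a called interaction. It is not among the genes named from that list. Gstt3 had an interaction of 0.98 ± 0.21 on the log2 scale (adjusted p = 0.012), with 11 of 12 Rapa + DR mice above the DR median and 10 of 12 Rapa mice below the AL median. Ces1g had 0.61 ± 0.16 (adjusted p = 0.030), with a change of 0.62 in Rapa + DR against DR and of 0.01 in Rapa against AL. Nr1i2 had 0.46 ± 0.13 (adjusted p = 0.047), a call lost under 5 alternative settings and also when any 1 of 30 arrays was left out. Rxra had 0.40 ± 0.10 (adjusted p = 0.023), with a decrease of 0.43 in Rapa against AL. With arrays centred but their spread left as measured, Gstt3 kept its call (1.07), and Ces1g (0.64), Nr1i2 (0.52) and Rxra (0.40) did not.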

How the results depend on the processing

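Of 79 called values of members, 55 kept their call under every alternative setting that could be run for them (9 for Gpx6 and the Gstt3 interaction, 10 for the others), 68 kept it whichever single array was left out, and 2 changed sign, both with arrays centred but their spread left as measured: Gstk1 in Rapa + DR against AL (0.13) and Gstz1 in Rapa + DR against Rapa (0.20). That setting called 29 members in Rapa + DR against Rapa instead of 18, and 3576 of all probes instead of 2547. In Rapa + DR against DR, where none was called, quantile normalization called 3 and background subtraction 2. Of all probes they called 383 and 373, instead of 304. For the interaction, with 1 call, quantile normalization called 3, background subtraction 2, the stricter filter 2, array weights 8 and the fit without the 5 arrays 5. Of all probes these settings called 676, 348, 413, 1513 and 1005, instead of 357, so the number of calls changed over the whole array. With single arrays left out, the calls ranged from 9 to 14 in DR against AL, 8 to 14 in Rapa against AL, 17 to 19 in Rapa + DR against AL, 17 to 21 in Rapa + DR against Rapa and in DR against Rapa, and 1 to 5 for the interaction, and stayed at 0 in Rapa + DR against DR. The 8 calls in Rapa against AL came without AL mouse 8 or AL mouse 11, and the 5 interaction calls without AL mouse 3 or AL mouse 7. The cause was not tested. Array weights and the fit without the 5 arrays gave 8 higher and 7 lower in DR against AL, and background subtraction 8 and 5. Of all probes these settings called 3090, 2854 and 3177, instead of 2491, and 62.3%, 62.5% and 56.9% of them were higher. With the replicate number as a block, the calls were 10, 13, 18, 0, 17, 18 and 1, in the order of DR against AL, Rapa against AL, Rapa + DR against AL, Rapa + DR against DR, Rapa + DR against Rapa and DR against Rapa, with the last for the interaction. Of 67 same-numbered pairs of arrays, 23 correlated over 0.1, and 4 of 46 arrays correlated best with their own number. Background subtraction moved called values of dim probes by over 1.5 times in the same direction, such as those of Gpx7 in DR against AL (1.23), Gstp2 in Rapa + DR against AL (-1.85) and the dimmest Gss probe in DR against AL (1.11). Probes near background, such as those of Gpx6, Gpx7 and Gsto2, have compressed changes.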
